A study of Mus musculus with 6 samples.

Results

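The genes described here are the secreted Wnt ligands, their Frizzled (Fzd) receptors, the Wnt inhibitors of the Dkk and Sfrp families, and the Bmp and Fgf genes, as read in mouse ear skin by one-colour expression arrays. They were taken by name: any probe whose gene name is Wnt, Fzd, Dkk, Sfrp, Bmp or Fgf followed directly by a digit. The array carries 90 such probes for 71 genes, and 72 probes of 63 genes stood well above background on 3 or more of the 6 arrays. Those 63 genes, of 23675 genes kept by the same filter, are compared between the groups. The other 8 (Dkk1, Dkk4, Fgf3, Fgf16, Fgf17, Fgf20, Wnt8a and Wnt8b) did not reach that level. Total RNA came from 3 wild-type mice (WT 1, 2 and 3), labelled NC16A sufficient, and 3 knockout mice (KO 1, 2 and 7), labelled NC16A deficient, with 1 array per mouse. NC16A is a segment of BP180, the hemidesmosomal collagen XVII encoded by Col17a1. The design text says that age and sex were matched; strain, age in weeks, the extent of the deletion and any shared allele are not given in the sources used here.

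Hair follicles cycle through growth (anagen), regression (catagen) and rest (telogen). Wnt ligands acting through Frizzled receptors stabilise beta-catenin and start growth, while Dkk and Sfrp proteins block the ligand or the receptor complex. BMP ligands from the follicle and the surrounding dermis and fat hold follicle stem cells at rest, and FGFs act in both directions, with Fgf7 and Fgf10 from the dermal papilla promoting growth, Fgf18 holding rest and Fgf5 ending growth.

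Of the 63 genes, 3 passed the test at an adjusted p under 0.05: the Wnt inhibitor gene Sfrp4 fell, and the BMP ligand genes Bmp8a and Bmp10 rose. The 3 of 63 come to 4.76%, and the same test called 2.37% of all 23675 genes, 1.98% higher and 0.389% lower in KO. No Wnt, Frizzled, Dkk or Fgf gene passed. The probes that carried the 3 calls, and that of Bmp8b, the close paralogue of Bmp8a, are shown by their first 30 of 60 bases, 5′ to 3′, with positions on mm9.
Sfrp4, chr13:19724488-19724547, plus strand: cacagttgtctgtgtgcatactgtgtaaga
Bmp8a, chr4:122989906-122989965, minus strand: taaagagacagagacaggagaatctctgtg
Bmp8b, chr4:122803275-122803334, plus strand: tgacttccctcagtgataaactatgatgta
Bmp10, chr6:87384427-87384486, plus strand: gtcgtcacctacaagtttaaatatgaaggg
The full probes of Sfrp4, Bmp8a and Bmp8b held a stop codon in all 3 forward reading frames, and that of Bmp10 had 1 open frame. The Bmp8a and Bmp8b probes matched at 25 of 55 aligned bases, with no shared run longer than 5. That compares the probes only with each other. Whether either probe also binds RNA of the other paralogue was not tested. Exon and UTR annotation of mm9 was not used here.

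Promoter sequence is shown for the 2 genes that rose and for Bmp8b, as the 250 bases before the start in gene orientation, from RefSeq (GRCm38.p6). Capitals mark the core letters bound by TCF/LEF factors, the nuclear partners of beta-catenin, searched as CTTTGA or CTTTGT on both strands.
Bmp8a, chr4:123343253-123343502, minus strand: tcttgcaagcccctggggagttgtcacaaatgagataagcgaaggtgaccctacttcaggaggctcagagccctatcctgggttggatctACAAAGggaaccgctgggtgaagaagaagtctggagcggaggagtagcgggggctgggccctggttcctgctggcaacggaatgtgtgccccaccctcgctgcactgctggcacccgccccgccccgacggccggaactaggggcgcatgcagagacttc
Bmp8b, chr4:123104911-123105160, plus strand: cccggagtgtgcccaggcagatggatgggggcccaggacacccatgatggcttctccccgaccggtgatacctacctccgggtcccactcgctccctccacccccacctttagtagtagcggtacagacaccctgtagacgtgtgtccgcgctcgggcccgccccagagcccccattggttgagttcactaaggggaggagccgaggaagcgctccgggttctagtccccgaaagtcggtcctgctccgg
Bmp10, chr6:87428744-87428993, plus strand: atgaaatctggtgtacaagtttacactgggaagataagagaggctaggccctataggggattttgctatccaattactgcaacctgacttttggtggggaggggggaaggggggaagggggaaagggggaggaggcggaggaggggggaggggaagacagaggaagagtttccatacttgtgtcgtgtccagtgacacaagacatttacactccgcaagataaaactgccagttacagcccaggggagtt
The Bmp8a window held 1 match and the others none. A match stood in 12 of the 49 promoters listed for these families (24.5%) and in 27.7% of all 27025 promoters, which describes the windows and not binding. The Bmp8a and Bmp8b windows were 31.7% identical without gaps. Sfrp4 had no entry among the promoters used, so no window of it was searched.

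The share of spots well above background ran from 72.6% to 78.2%. Every value below is scaled by its array's 75th percentile of signal, which ran from 3806 to 4416 for KO and from 5276 to 6656 for WT, so each KO array was dimmer before scaling. The WT arrays and KO 1 shared slide 1, and KO 2 and KO 7 were on slide 2. Results are therefore also given within slide 1, as KO 1 against the 3 WT arrays, and with slide as a block in the fit. Slide 2 held only KO arrays, so both ways give the same difference, which rests on KO 1 alone. Slide and genotype cannot be told apart for KO 2 and KO 7. Col17a1 differed by -0.13 ± 0.14 (95% interval -0.46 to 0.21), and whether its probe lies in the deleted segment is unknown, so it checks no label.

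The secreted Wnt inhibitor genes contained the largest fall. Values are log2 signal after division by the array's 75th percentile. Differences are KO minus WT, and ± marks their limma standard error, with 3 mice in each group. On the arrays of WT 1, 2 and 3, Sfrp4, which encodes a secreted Frizzled-related protein that binds Wnt ligands, read -0.69, 0.55 and -0.10. On those of KO 1, 2 and 7 it read -2.33, -2.78 and -2.38. Later values follow this order of mice. All 3 KO values lay below all 3 WT values, and the WT values were the more spread. The difference was -2.41 ± 0.32, a 5.32-fold fall (95% interval -3.18 to -1.65, adjusted p = 0.017). Within slide 1 it was -2.25, and with slide as a block its adjusted p was 0.22. The call was also lost when WT 3 (-2.42, adjusted p = 0.076) or KO 2 (-2.27, adjusted p = 0.066) was left out. In whole skin, fewer cells of a type and less RNA per cell cannot be told apart.

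The other Sfrp genes differed far less. Sfrp2 read 1.12, 1.19 and 1.14 in WT and 1.03, 0.83 and 1.03 in KO, without overlap. The difference was -0.18 ± 0.12 (adjusted p = 0.35) and -0.12 within slide 1. Sfrp1 read -0.47, -0.35 and -0.29 in WT and -0.31, -0.64 and -1.17 in KO. Its groups overlapped, the difference was -0.34 ± 0.23, and within slide 1 it was 0.06. Sfrp5 differed by -0.43 ± 0.27 with overlapping groups. All 4 Sfrp differences were below 0 under each of the 5 scalings tried, and 3 of 4 were within slide 1.

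Among the Dickkopf genes nothing passed. Dkk3, a divergent member, read 3.22, 3.19 and 2.96 in WT and 3.04, 3.06 and 3.31 in KO. The ranges overlapped almost wholly and the difference was 0.01 ± 0.14 (95% interval -0.33 to 0.36). Dkk2, which encodes a ligand of the Wnt co-receptors Lrp5 and Lrp6, read 0.10, -0.29 and 0.18 in WT and -0.27, -0.49 and 0.46 in KO. Its groups also overlapped, with a difference of -0.10 ± 0.27. Dkk1, the best known follicle inhibitor of the family, was well above background on 1 array, KO 2, and Dkk4 on none, so neither has a value to compare.

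No Wnt ligand gene passed, and the balance of directions moved with the scaling. Of 17 kept, 11 were lower and 6 higher in KO, with a median difference of -0.06. The split was 8 lower and 9 higher with normexp background correction (median 0.07), 12 and 5 with quantile normalization (median -0.23) and 13 and 4 with array median scaling (median -0.20). Wnt10a, a ligand of the follicle bud and the growing hair matrix, read 2.55, 2.56 and 2.40 in WT and 2.40, 2.55 and 2.37 in KO. The 2 groups covered nearly the same range, and the difference was -0.06 ± 0.13 (95% interval -0.37 to 0.24). Wnt10b, a ligand that promotes the onset of growth, read -4.12, -3.48 and -3.76 in WT and -3.71, -3.21 and -3.47 in KO. The KO values were higher on average but overlapped, with a difference of 0.32 ± 0.21 (adjusted p = 0.36) that shrank to 0.07 within slide 1.

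Wnt7b, a follicle stem cell and matrix ligand, and Wnt16 had the largest differences among the ligand genes whose groups did not overlap. Wnt7b read -1.02, -1.30 and -1.33 in WT and -1.73, -1.77 and -2.01 in KO. Every KO value was lower, by -0.62 ± 0.15 over all mice (adjusted p = 0.084) and by -0.51 within slide 1. Wnt16 read -4.48, -4.23 and -4.01 in WT and -3.75, -3.42 and -3.09 in KO. Every KO value was higher, with a difference of 0.82 ± 0.21 (adjusted p = 0.092) and 0.49 within slide 1. A second Wnt16 probe gave 0.37 ± 0.13. Wnt4 (-0.29) and Wnt9a (-0.33) were the other ligand genes without overlap, both lower in KO.

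The non-canonical ligand genes Wnt5a and Wnt11 varied widely within the KO group. Wnt5a, which signals largely without beta-catenin, read -0.41, -0.23 and 0.08 in WT and -0.30, 0.21 and 0.60 in KO. KO 1 lay inside the WT range and KO 7 was highest, so the difference of 0.36 ± 0.25 (adjusted p = 0.38) turned to -0.11 within slide 1. Wnt11 read -2.16, -1.93 and -1.49 in WT and -1.64, -2.47 and -1.10 in KO, with KO 2 below and KO 7 above every WT array. Its difference was 0.12 ± 0.36. The remaining ligand genes overlapped between groups: Wnt1 (0.26), Wnt7a (0.02), Wnt3a (-0.05), Wnt9b (-0.05), Wnt5b (-0.16), Wnt6 (-0.30), Wnt3 (-0.32), Wnt2 (-0.42) and Wnt2b (-0.43). Wnt2b was well above background on all 3 WT arrays and on no KO array, but the background level of the KO arrays was too near its WT level to give a fold.

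None of the 10 Frizzled genes, which encode the Wnt receptors, passed. Fzd1 read 2.61, 2.36 and 2.49 in WT and 2.24, 2.01 and 2.03 in KO, and Fzd7 read -0.17, -0.47 and -0.35 in WT and -0.69, -0.68 and -1.21 in KO. In both, every KO value was below every WT value, with differences of -0.39 ± 0.14 and -0.53 ± 0.19 (adjusted p = 0.15 for each). These were -0.24 and -0.36 within slide 1. The other 8 overlapped and lay between -0.40 (Fzd8) and 0.41 (Fzd5). Fzd10 (0.06), Fzd3 (-0.02) and Fzd6 (-0.07) were the closest to 0.

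**Figure D1:**
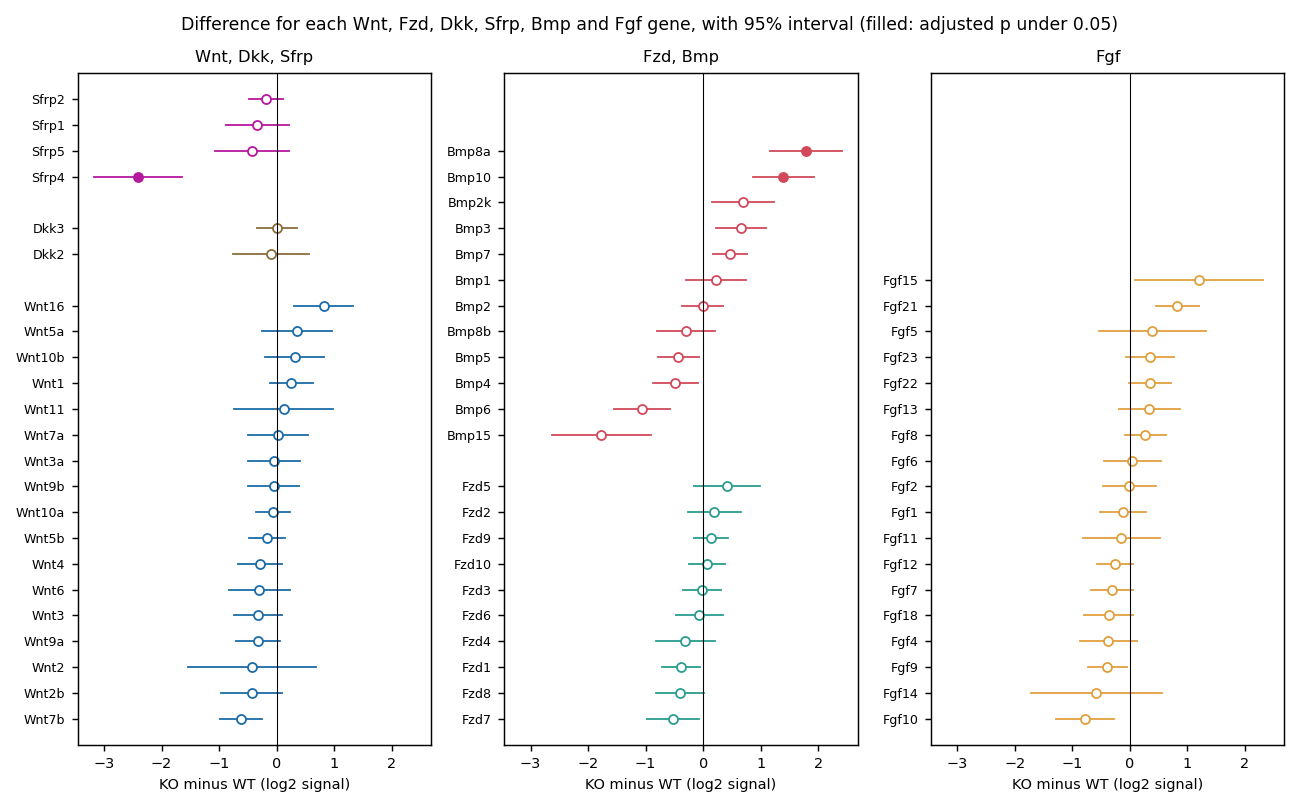
Difference between KO and WT in log2 signal for each of the 63 genes, ordered within its family, with the 95% interval of the limma fit from 3 mice per group. The 3 filled points, Sfrp4 at -2.41, Bmp10 at 1.39 and Bmp8a at 1.78, are those with an adjusted p under 0.05.

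The Bmp genes were the most divided family. Of 12, 5 had every KO value above every WT value (Bmp8a, Bmp10, Bmp2k, Bmp3 and Bmp7) and 4 had every KO value below (Bmp15, Bmp6, Bmp4 and Bmp5), while Bmp1, Bmp2 and Bmp8b overlapped. That is 9 of 12 genes without overlap, against 35.4% of all genes tested and 25 of all 63 genes here (39.7%). The same 9 of 12 Bmp genes (75%) had an unadjusted p under 0.05, against 26.6% of all genes. Both counts read the same 6 arrays, so the second is no separate observation. The median Bmp difference was 0.11, since the 2 directions balanced. No test was made of the family against other genes.

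**Figure D2:**
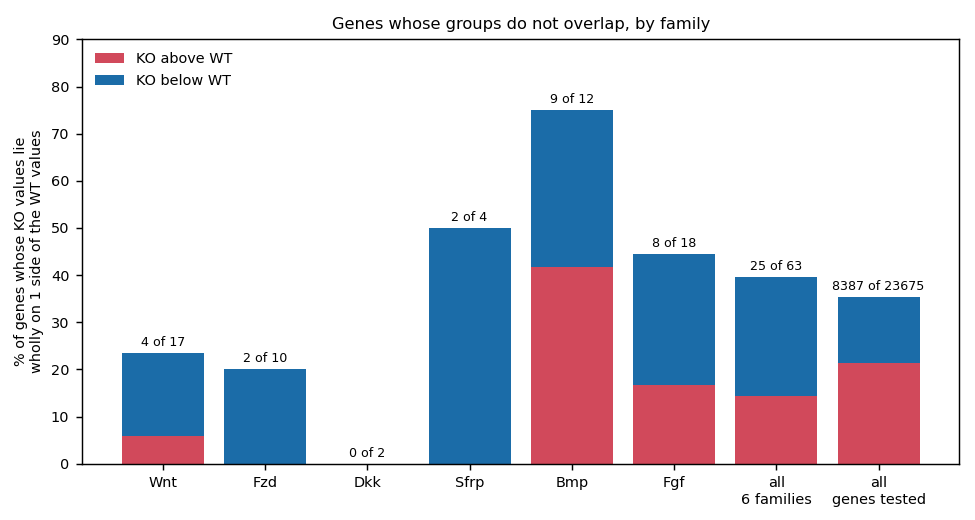
Share of genes in each family, in % of the genes kept, whose 3 KO values lie wholly above (red) or wholly below (blue) the 3 WT values, with the counts over the bars. The Bmp bar stands at 9 of 12, with both directions present, and the bar for all genes at 35.4%.

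Bmp8a, a BMP ligand gene best known from the germ line, read -5.05, -4.73 and -4.39 in WT and -3.24, -3.12 and -2.47 in KO. The groups were separated by more than the spread of either, and the difference was 1.78 ± 0.26, a 3.44-fold rise (95% interval 1.16 to 2.41, adjusted p = 0.025). Within slide 1 it was 1.49, and with slide as a block the adjusted p was 0.30. The call was lost without WT 1 (1.62, adjusted p = 0.067), WT 2 (1.78, adjusted p = 0.11), WT 3 (1.95, adjusted p = 0.056) or KO 2 (1.87, adjusted p = 0.071). Its paralogue Bmp8b read -6.17, -6.47 and -6.28 in WT and -6.18, -6.82 and -6.83 in KO, overlapping, with a difference of -0.30 ± 0.21 (adjusted p = 0.37). That of Bmp8b turned to 0.13 within slide 1 and to 0.07 with normexp, so it has no settled direction.

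Bmp10, a ligand gene known mainly from the heart, read -5.22, -4.74 and -5.20 in WT and -4.04, -3.52 and -3.43 in KO. Again every KO value was higher, with KO 1 nearest to WT, and the difference was 1.39 ± 0.22, a 2.62-fold rise (95% interval 0.86 to 1.92, adjusted p = 0.033). Within slide 1 it was 1.01, and with slide as a block the adjusted p was 0.33. The call was lost without WT 1 (1.30, adjusted p = 0.090), WT 2 (1.55, adjusted p = 0.063), WT 3 (1.32, adjusted p = 0.11), KO 2 (1.32, adjusted p = 0.11) or KO 7 (1.27, adjusted p = 0.069), and also with quantile normalization (1.22, adjusted p = 0.053). Both rising genes were well above background on all 6 arrays. Under the other scalings the rise was as low as 1.48 for Bmp8a, and 1.08 for Bmp10 with normexp.

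A further 2 Bmp genes lay at least 2-fold lower in KO without passing. Bmp6, which keeps follicle stem cells at rest, read -2.60, -2.77 and -2.68 in WT and -3.36, -3.78 and -4.11 in KO. The WT values lay close together and every KO value was lower, for a difference of -1.07 ± 0.20 (adjusted p = 0.054), which was -0.68 within slide 1. It passed under 4 alternatives, namely normexp (-0.89, adjusted p = 0.039), array median scaling (adjusted p = 0.048), an intensity trend (adjusted p = 0.044) and the filter on all 6 arrays (adjusted p = 0.042), and also without KO 1 (adjusted p = 0.025). Bmp15, an oocyte growth factor gene, read -4.90, -6.21 and -5.73 in WT and -7.05, -7.32 and -7.77 in KO. It was near background, being well above it on 2 of 3 KO arrays, and differed by -1.77 ± 0.36 (adjusted p = 0.058), or by -0.64 with normexp. With normexp, neither gene differed by 2-fold.

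Neither Bmp2 nor Bmp4, the ligands most tied to the resting phase in dermis and fat, passed. Bmp2 read 0.27, 0.33 and 0.28 in WT and 0.30, 0.06 and 0.48 in KO, around the same mean, for a difference of -0.01 ± 0.15 (95% interval -0.36 to 0.34). Bmp4 read 0.97, 1.24 and 1.32 in WT and 0.91, 0.61 and 0.56 in KO. Every KO value was lower, although KO 1 was close to WT 1, and the difference was -0.48 ± 0.16 (adjusted p = 0.14) and -0.27 within slide 1. Bmp7, an epithelial and dermal papilla ligand, read 2.01, 1.99 and 1.93 in WT and 2.31, 2.53 and 2.49 in KO. Every KO value was higher, by 0.47 ± 0.12 (adjusted p = 0.096) and by 0.34 within slide 1. Of the others, Bmp3 differed by 0.66 ± 0.18, Bmp5 by -0.43 ± 0.15 and Bmp1, which encodes a procollagen protease and no BMP ligand, by 0.22 ± 0.22. Bmp2k, which encodes a kinase and shares only the name, differed by 0.70 ± 0.23.

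**Figure D3:**
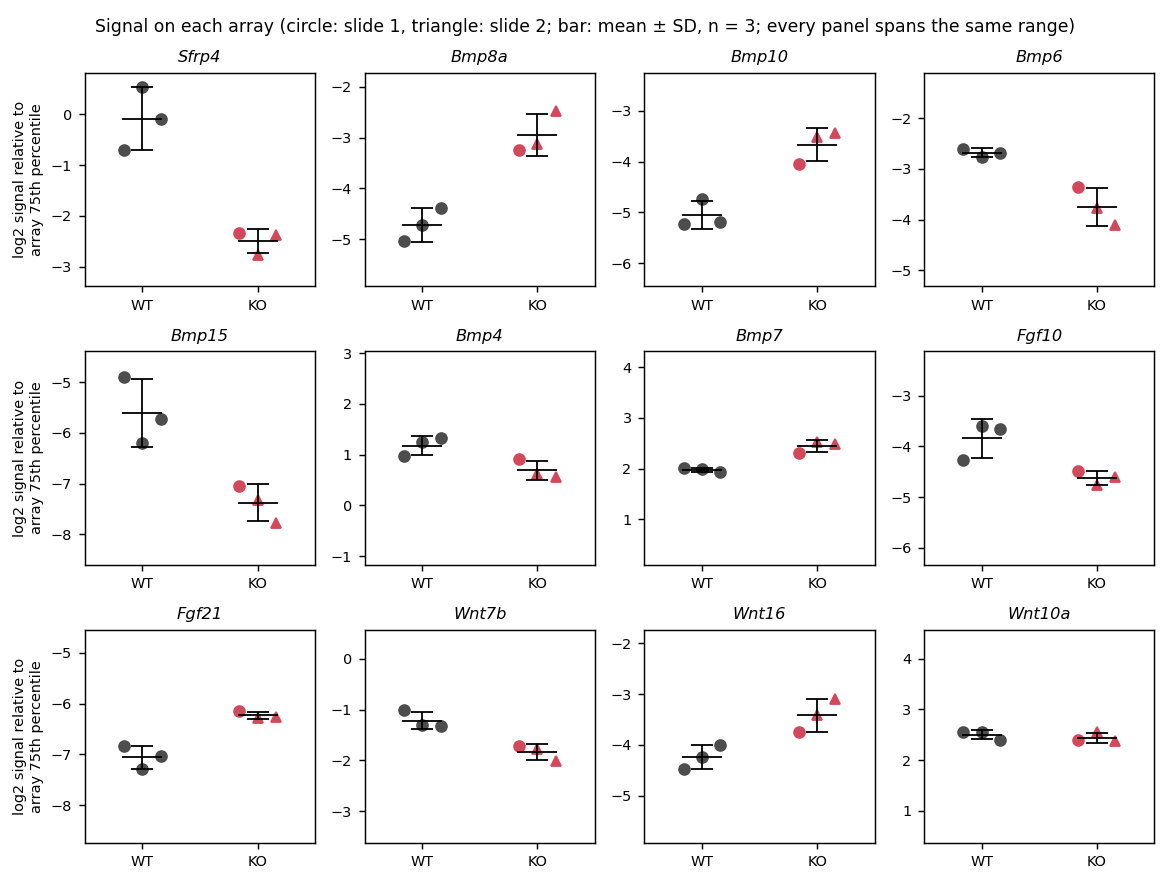
Log2 signal on each array, scaled to that array's 75th percentile, for 12 of the genes, with WT in grey and KO in red, circles for slide 1, triangles for slide 2, and bars for the mean ± SD of 3 mice. All genes shown except Wnt10a are among those whose groups do not overlap. In those panels KO 1, the only KO array on the WT slide, therefore lies on the side of KO 2 and KO 7 by the choice of genes. KO 1 is the KO value nearest to WT in every panel except Fgf21 and Wnt10a.

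No Fgf gene passed. Fgf21, an endocrine metabolic hormone gene, came nearest, reading -6.83, -7.29 and -7.04 in WT and -6.15, -6.28 and -6.26 in KO. Every KO value was higher and the KO values were tight, with a difference of 0.83 ± 0.15 (adjusted p = 0.051) and 0.91 within slide 1. Fgf21 passed with the filter on all 6 arrays (adjusted p = 0.042). Its signal was close to background, and the difference fell as low as 0.54 under the other scalings. Klb, the co-receptor gene for this hormone, differed by -1.41 ± 0.33 in the opposite direction (adjusted p = 0.080).

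None of the Fgf genes tied to the hair cycle passed. Fgf10, a dermal papilla signal, read -4.27, -3.59 and -3.65 in WT and -4.48, -4.77 and -4.60 in KO. All KO values were lower, with a difference of -0.78 ± 0.21 (adjusted p = 0.10) and -0.65 within slide 1. Fgf7, its close relative, read -0.05, 0.04 and -0.11 in WT and -0.39, -0.53 and -0.12 in KO. The difference was -0.31 ± 0.15 (adjusted p = 0.23) and -0.35 within slide 1. KO 7 lay just under WT 3, so the groups were barely separate. Fgf18, the signal that holds rest, read 0.95, 1.13 and 1.42 in WT and 0.90, 0.57 and 0.91 in KO, also barely separate. The difference was -0.37 ± 0.18 (adjusted p = 0.23) and -0.26 within slide 1. Fgf5, whose loss gives long hair, read -4.69, -5.80 and -5.38 in WT and -4.34, -4.81 and -5.54 in KO. Its groups overlapped widely, with a difference of 0.39 ± 0.39 (95% interval -0.53 to 1.32).

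Among the other Fgf genes, Fgf9 (-0.39), Fgf12 (-0.26) and Fgf23 (0.35) had groups that did not overlap, and Fgf12 turned to 0.07 with normexp. Fgf15, an intestinal hormone gene at the edge of detection, differed by 1.21 ± 0.47 with overlapping groups. Fgf13 (0.34), Fgf8 (0.27), Fgf6 (0.04), Fgf2 (-0.01), Fgf1 (-0.12), Fgf11 (-0.15), Fgf4 (-0.37) and Fgf14 (-0.58) overlapped. A second Fgf23 probe, left out because it was well above background only on KO 2 and KO 7, read -10.1, -9.66 and -9.60 in WT and -7.82, -7.00 and -3.43 in KO, so that KO 7 alone stood high.

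Fgf22, which is expressed in the inner root sheath of the follicle, was read by 2 probes that gave opposite answers, and both are shown, as first 30 of 60 bases on mm9.
Fgf22, brighter probe, chr10:79221282-79221341, plus strand: gctctgcttttttgagtaggtgtattttaa
Fgf22, dimmer probe, chr10:79219513-79219572, plus strand: tctactctgtggactgtaggttccgggagc
The brighter probe read -1.29, -1.21 and -1.13 in WT and -0.97, -1.01 and -0.61 in KO, all KO values higher, for a difference of 0.34 ± 0.15 (adjusted p = 0.21). The dimmer probe read -1.98, -2.27 and -2.30 in WT and -2.41, -2.72 and -3.15 in KO, all KO values lower, for a difference of -0.58 ± 0.22 (adjusted p = 0.16). No single direction can be given for Fgf22 from these arrays.

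In all, 9 genes had 2 kept probes, and in 5 of them the signs differed. Besides Fgf22, Fzd7 gave -0.53 and 0.20, Fzd5 gave 0.41 and -0.09, Fgf1 gave -0.12 and 0.72, and Fgf6 gave 0.04 and -0.25, the brighter probe first. The lower KO signal of Fzd7 thus rests on 1 of its 2 probes. The probes of Fgf18 (-0.37 and -0.43), Wnt16, Fzd2 (0.19 and 0.23) and Bmp1 (0.22 and 0.16) had the same sign, and those of Fgf18 share 26 bases. Sfrp4, Bmp8a and Bmp10 each rest on 1 probe.

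**Figure D4:**
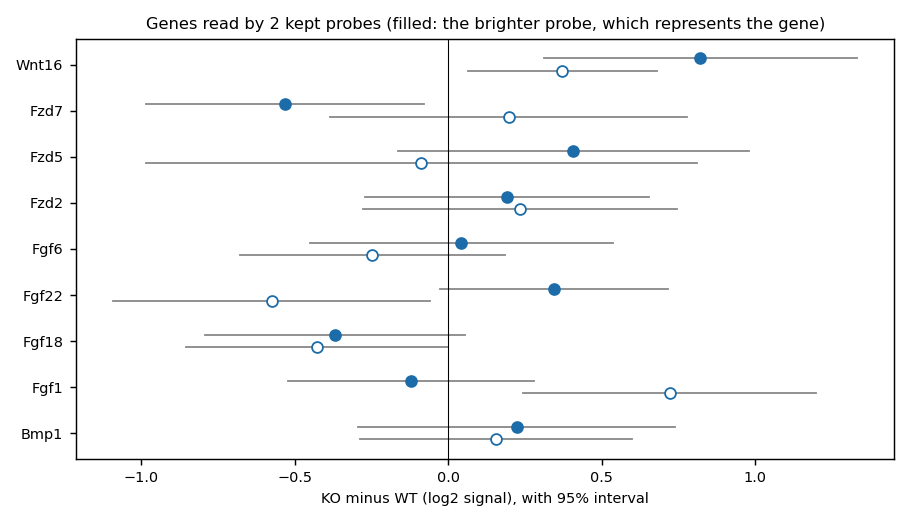
Difference between KO and WT in log2 signal, with 95% intervals, for the 2 kept probes of each of 9 genes, the brighter filled. The Fgf22 probes lie on opposite sides of 0, at 0.34 and -0.58, while the Fgf18 probes lie together at -0.37 and -0.43.

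Over the 63 genes the median difference was -0.07, against 0.05 over all genes. With array median scaling, which moved the median of all genes by -0.14, these became -0.20 and -0.08, and with normexp 0.02 and 0.11, with 33 of the 63 higher and 30 lower. With array median scaling the genes called among all shifted from 468 higher and 92 lower to 389 and 149. A difference of at least 2-fold was seen in 6 of 63 (9.52%) and in 9.07% of all genes. For 48 of the 60 genes that did not pass, the whole 95% interval lay within 2-fold in either direction. The same share was not taken over all genes, so it marks nothing particular to these families. Within slide 1, the sign was kept by 50 of the 63, where KO 1 enters both comparisons. For the 25 whose groups did not overlap, that sign is fixed by the choice of genes.

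Of other genes of the 3 pathways, 1 passed. In 8 lists of receptors, co-receptors, inhibitors, signal carriers and target genes outside the named families, 93 of 97 listed genes were kept and 1 passed, higher in KO. It was Lef1, a TCF/LEF factor of the hair matrix, which read -3.12, -3.44 and -2.90 in WT and -2.30, -1.95 and -1.80 in KO. Every KO value was higher, by 1.13 ± 0.20 (adjusted p = 0.045), with 0.85 within slide 1 and an adjusted p of 0.44 with slide as a block. The call was lost on leaving out any 1 mouse but KO 1: WT 1 (1.15, adjusted p = 0.11), WT 2 (0.99, adjusted p = 0.16), WT 3 (1.26, adjusted p = 0.083), KO 2 (1.10, adjusted p = 0.12) or KO 7 (1.03, adjusted p = 0.085). It was also lost with quantile normalization (adjusted p = 0.051) and array median scaling (adjusted p = 0.052).

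None of the other Wnt list genes passed. The gene with the smallest p among Wnt receptors and enhancers was Lgr5, an R-spondin receptor of follicle stem cells (0.46 ± 0.14, adjusted p = 0.12). Among further Wnt inhibitors, 10 of 12 were below 0, against 10634 of all 23675 genes. The median of these inhibitors was -0.26, and -0.20 within slide 1. The smallest p was that of Apcdd1 (-0.50 ± 0.16). For BMP signalling the smallest p belonged to the receptor gene Bmpr1a (-0.63 ± 0.21), the extracellular modulator Twsg1 (-0.50 ± 0.20) and the target gene Msx2 (0.37 ± 0.18). Among FGF feedback genes it was Spry1 (-0.58 ± 0.14, adjusted p = 0.082). Median differences of the 8 lists lay between -0.26 and 0.11.

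Most genes listed here as hair matrix and shaft markers rose in KO. Of the 13 kept, 10 passed, all of them higher, against 2.37% of all genes tested. The median difference was 3.13, and 3.35 within slide 1. The list was chosen with earlier results of these data known. With slide as a block, 8 still passed. Examples are the hair keratin genes Krt35 (3.099 ± 0.22) and Krt82 (3.21 ± 0.20) and the inner root sheath keratin gene Krt73 (3.11 ± 0.22). Krt85 (-0.10), Foxn1 (0.14) and Dlx3 (0.43) did not pass, and Shh was not kept. With replicate number as a block in the fit, 0 genes of the list passed. The list's summed signal, in multiples of the array's 75th percentile, was 13.6 to 19.8 in WT and 68.4 to 118 in KO. Dermal papilla markers (0 of 10 passed, median -0.06) and resting follicle and stem cell markers (0 of 9, median 0.05) had no gene that passed. Their smallest p belonged to Sox2 (-1.16 ± 0.25) and Npnt (-0.64 ± 0.19).

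Marker lists of other tissue in the ear also shifted in their medians, but only S100a8 and S100a9 passed among their genes. Summed signals of the adipocyte, muscle and T cell lists overlapped between the groups. All 8 adipocyte markers were lower in KO (median -0.90, and -0.39 within slide 1), with the smallest p for Adipoq (-1.31 ± 0.38), and their summed signal was 54.3 to 112 in WT and 45.8 to 73.9 in KO. All 8 skeletal muscle markers (median -0.65, and -0.31 within slide 1; Myh1 -0.54 ± 0.16; summed signal 148 to 264 and 100.4 to 185) and 5 of 7 cartilage markers (median -0.62, and -0.48 within slide 1; Comp -0.62 ± 0.14; 17.9 to 22.6 and 14.2 to 16.1) were lower too. None of those 3 lists had a gene that passed. Fibroblast markers had a median of 0.42, and 0.19 within slide 1 (Col1a2 0.67 ± 0.19; summed signal 257 to 299 and 324 to 457), basal keratinocyte markers 0.26, and 0.16 within slide 1 (Krt5 0.54 ± 0.15; 205 to 242 and 272 to 308) and T cell markers 0.31, and 0.32 within slide 1 (Cd3g 0.48 ± 0.15; 3.45 to 4.19 and 3.80 to 5.51), with none passing. Of 8 myeloid markers, S100a8 (4.72 ± 0.35) and S100a9 (4.69 ± 0.30), which keratinocytes also make, rose, while the list's median was -0.13. The part of these tissue differences in the fall of Sfrp4, in the rises of Bmp8a and Bmp10 or in the lower values of Bmp4, Bmp6 and Fgf10 was not tested.

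**Figure D5:**
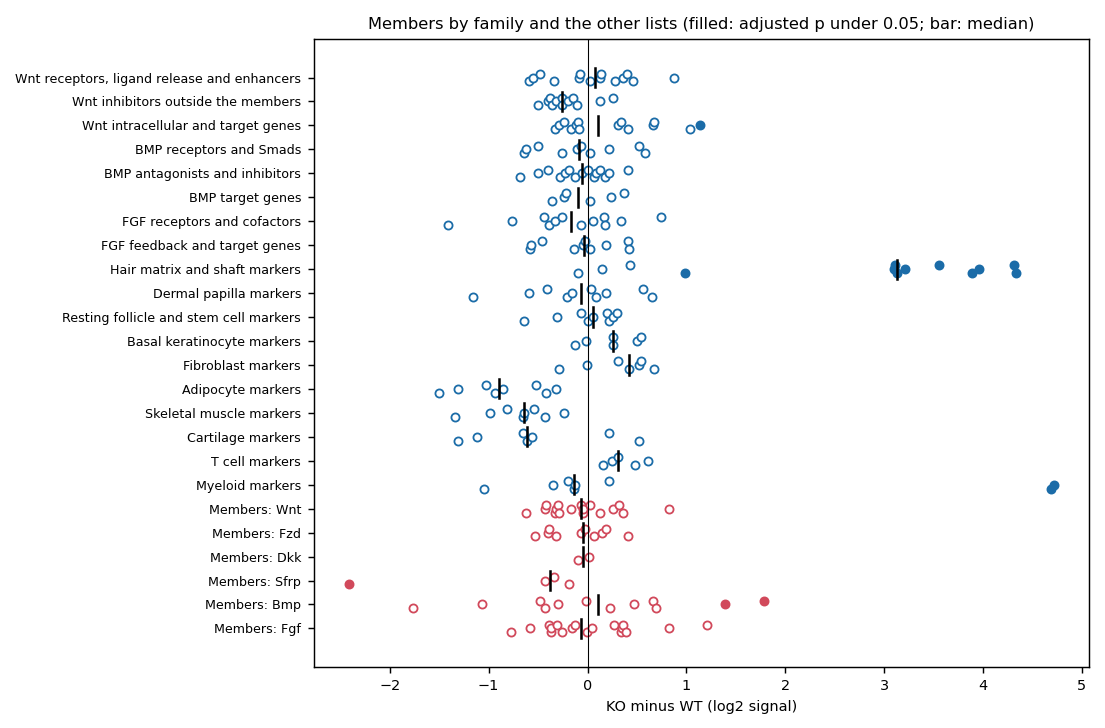
Difference between KO and WT in log2 signal for each gene of 8 pathway lists and 10 marker lists (blue) and of the 6 families (red), with a bar at each median and filled points for an adjusted p under 0.05. The hair matrix and shaft list lies mostly near 3 to 4, with a median of 3.13, while the family medians lie between -0.38 and 0.11.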

How the data were processed

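The deposited scanner files give each spot's processed signal as a linear intensity, which the authors obtained with Agilent Feature Extraction 10.7.3.1 (protocol GE1_107_Sep09, design 026655) after background subtraction, per the file headers. The labelling method is not stated in the labels; RNA was extracted with Qiagen RNeasy, per the labels' protocols. Groups and replicate numbers came from the sample titles, and slides from the file headers.

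From the deposited intensity, outlier spots (170 to 249 an array) were left out, spots of a probe averaged, and values expressed as log2 minus the array's 75th percentile. No spot was saturated. The filter, well above background on 3 or more of 6 arrays, left 29601 probes, and the brightest of these stood for each of 23675 genes. The KO and WT groups were compared with lmFit and eBayes of limma 3.58.1 in R 4.3.3 (two-sided, no covariate), with Benjamini-Hochberg adjustment over all genes. The number of arrays limits the precision. The code was tested on simulated data.

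The named genes were those that passed, the 2 largest non-overlapping differences of each family, and textbook hair cycle genes; in other lists, up to 3 that passed or else the 1 with the smallest p. The members and lists were chosen with earlier results of these data known. Alternatives covered background correction, scaling, filter, probe summary, the series matrix, replicate and slide blocks, an intensity trend, the threshold and each mouse left out. Same-numbered WT and KO arrays showed correlations of their deviations from the group means of 0.083 and 0.054. Other pairings of WT and KO arrays ran from -0.14 to 0.21. These correlations depend on one another, so they cannot exclude pairs. The design text names no pairing, and the numbers were not taken as pairs. Python 3.11.15, pandas 2.3.3, numpy 2.4.6 and matplotlib 3.10.9 were used.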

Additional observations from a re-analysis of the deposited data

How the results depend on the processing

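The count of the 63 genes called, 2 higher and 1 lower in KO, became 2 and 2 with normexp, array median scaling or an intensity trend, 1 and 1 with quantile normalization, 0 and 1 with no filter, 3 and 2 with the filter on all 6 arrays, 5 and 4 at an adjusted p under 0.10, and 0 and 0 with slide as a fixed block, within slide 1 or with the replicate block. Leaving out 1 mouse gave 0 to 2 higher and 0 to 2 lower. Among all genes, 468 higher and 92 lower became 860 and 135 with normexp, 333 and 119 with quantile normalization, 389 and 149 with array median scaling, 269 and 27 with no filter, 158 and 10 with slide as a fixed block, 157 and 8 within slide 1, 1569 and 471 at an adjusted p under 0.10, and 183 to 717 and 19 to 254 with 1 mouse left out. The replicate block (numbers 1 and 2 shared) called 0 genes in either direction, and under it Sfrp4 differed by -2.48 (adjusted p = 0.19), Bmp8a by 1.71 (adjusted p = 0.11) and Bmp10 by 1.20 (adjusted p = 0.13). Sfrp4, Bmp8a and Bmp10 kept their direction under all alternatives run. Because their groups did not overlap, many of these alternatives could not have changed it. That holds for leaving out a mouse, for slide 1 alone and for the fixed slide and replicate blocks. Over the 63 genes, 13 changed sign under at least 1 of the other scalings, among them Wnt2b (up to 0.14), Bmp8b (up to 0.07), Fgf11 (up to 0.02), Fzd3, Wnt3a, Wnt7a and Wnt9b. Of the genes given array by array, these changed sign. Slide as a fixed block, and slide 1 alone, gave 0.0079 for Bmp2, -0.083 for Dkk3, 0.062 for Sfrp1 and -0.11 for Wnt5a. Dkk3 was -0.066 with quantile normalization, -0.12 with array median scaling and -0.15 with the replicate block, and Wnt11 was -0.015 with array median scaling and -0.0093 with the replicate block. Fgf22 was -0.12 with the mean of its probes. With 1 mouse left out, Bmp2 ranged from -0.11 to 0.10, Dkk2 from -0.38 to 0.10, Dkk3 from -0.074 to 0.061 and Wnt11 from -0.19 to 0.49. The 1 call in the other pathway lists became 0 with quantile normalization, array median scaling, no filter, the replicate block or slide as a block or alone, 2 with each probe alone, 5 at an adjusted p under 0.10, and 0 to 3 with 1 mouse left out; the 10 hair matrix and shaft calls became 0 with the replicate block and 7 to 11 otherwise. These recounts, and those of Lef1, were chosen after seeing the data. The cause of these changes was not tested. Signal close to background limits Bmp15, Fgf15, Fgf21, Wnt2b and Wnt7a most.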
